A study of Homo sapiens with 16 samples.

Results

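The heat shock chaperones examined here are 10 genes taken by name: the HSP70 genes HSPA8, HSPA1A, HSPA1B and HSPA6, their partners HSPH1, DNAJB1 and BAG3, the cytosolic HSP90 genes HSP90AA1 and HSP90AB1, and HSPD1. They are 10 of 28181 genes with counts in the series, and all 10 were among the 16856 genes that passed the low-count filter and were tested. Of the names 9 stand for proteins of the cytosol and nucleus, whereas the product of HSPD1, the chaperonin HSP60, works in the mitochondrial matrix, so the name of the group does not cover it. BAG3 is a co-chaperone and does not fold proteins itself. RNA was sequenced from HEK293 cells, a human line of embryonic kidney origin, that overexpressed wild-type RNF43 (WT), the RNF43 frameshift variant R117fs, the RNF43 frameshift variant G659fs or, as the control, green fluorescent protein (GFP). There were 16 libraries, 4 per group, and every one, control included, carried an overexpressed protein, so no group of untreated cells was compared. RNF43 is a membrane-bound ubiquitin ligase that removes Wnt receptors from the cell surface, and by its title the series asked how expression profiles can tell what a variant of a gene does. The labels state neither the way the constructs were delivered, nor their promoter, nor whether replicates are separate cultures, so the p-values measure the spread between these libraries, which may be technical.

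Chaperones of the HSP70 family bind unfolded stretches of a protein and release them in a cycle driven by ATP, which J-domain proteins such as DNAJB1 start and nucleotide exchange factors such as HSPH1 and BAG3 complete. The HSP90 chaperones act later, on nearly folded clients such as kinases and hormone receptors. When unfolded proteins build up, the transcription factor HSF1 is freed from chaperones, binds heat shock elements and raises transcription of HSPA1A, HSPA1B, HSPA6, DNAJB1 and other chaperone genes, while HSPA8 and HSP90AB1 are expressed in unstressed cells.

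The total of estimated counts per library ran between 20364357 and 46779570. RNF43 itself, in counts per 1000000 (CPM), ranged over 41400 to 58670 in the WT libraries, over 29650 to 92860 in those of R117fs and over 34610 to 46310 in those of G659fs, against 12.9 to 49.4 in GFP, so it was high in every library labelled with RNF43 and low in every GFP library, which does not tell the variants apart. R117fs replicates 1 and 4 stood apart. By chi-square per degree of freedom over genes, replicate 1 differed from the rest of its group by 71.7 to 83.3 and replicate 4 by 55.1 to 83.3, where pairs within the other groups differed by 3.34 to 20.4, the highest being WT replicates 1 and 2. Of 8 genes that mark HEK293 cells, all 8 reached 1 CPM, and their summed level was 1273 to 1387 CPM in WT, 1088 to 1266 in R117fs, 1210 to 1306 in G659fs and 961 to 1087 in GFP. Markers of blood cells summed to 6.78 to 8.27 CPM in WT, 6.01 to 8.76 in R117fs, 8.34 to 8.82 in G659fs and 10.8 to 13.1 in GFP (3 of 7 reached 1 CPM, and CD3E stayed under 0.1). Fibroblast markers summed to 35.1 to 48.8 CPM in WT, 39.0 to 62.2 in R117fs, 54.5 to 69.4 in G659fs and 42.8 to 56.9 in GFP (5 of 7 reached 1 CPM). Gut markers summed to 27.6 to 30.8 CPM in WT, 27.8 to 36.1 in R117fs, 28.3 to 30.7 in G659fs and 25.1 to 26.6 in GFP (2 of 6 reached 1 CPM, and KRT20 stayed under 0.1). The 8 mitochondrially encoded genes taken as a sign of RNA quality summed to 12040 to 14920 CPM in WT, 12520 to 13150 in R117fs, 13030 to 14510 in G659fs and 10990 to 13620 in GFP. No listed marker was at 0 in every library, and the part of these differences in the chaperone values was not tested.

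The promoters of these genes are shown because heat shock elements are the feature by which the family is known to be switched on together. A pair of forms was searched in the 250 bases before each RefSeq transcription start (GRCh38.p14): a run of 3 alternating units, GAANNTTCNNGAA or TTCNNGAANNTTC, and a run of 2 units, GAANNTTC or TTCNNGAA. Each pair of patterns covers both strands, and every 3-unit match also holds 2-unit matches. All 10 genes had a start in the table. The 3-unit form stood before a start of 5 of the 10 genes (HSPA6, HSPA8, HSP90AA1, HSP90AB1 and HSPD1), where 0.441% of 35116 starts held it. The 2-unit form stood before a start of 8 of 10, these 5 with HSPA1A, HSPA1B and DNAJB1, where 11.6% of starts held it. The percentages count single starts, whereas DNAJB1 and HSP90AB1 had 3 starts each and HSP90AA1 and HSPD1 2 each. In each of these genes 1 start held a match, so a count of genes is not like for like with the percentages. In HSPH1 and BAG3 neither pattern was found in these windows. The windows around the matches read as follows, 5′ to 3′ on the strand of the gene, with the matches in capitals (3-unit where the gene has one, otherwise 2-unit).
HSPA1A (chr6:31815412-31815469, plus strand): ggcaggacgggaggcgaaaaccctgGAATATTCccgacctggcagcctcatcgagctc
HSPA1B (chr6:31827608-31827665, plus strand): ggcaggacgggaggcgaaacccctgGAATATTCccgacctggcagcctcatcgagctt
HSPA6 (chr1:161524441-161524503, plus strand): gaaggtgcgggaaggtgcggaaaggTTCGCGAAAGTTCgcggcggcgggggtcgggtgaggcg
HSPA8 (chr11:123062154-123062263, minus strand): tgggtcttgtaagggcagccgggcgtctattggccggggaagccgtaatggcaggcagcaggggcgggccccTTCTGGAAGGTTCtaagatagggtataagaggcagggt
DNAJB1 (chr19:14518412-14518499, minus strand): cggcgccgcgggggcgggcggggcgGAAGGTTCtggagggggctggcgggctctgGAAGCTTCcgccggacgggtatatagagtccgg
HSP90AA1 (chr14:102087095-102087157, minus strand): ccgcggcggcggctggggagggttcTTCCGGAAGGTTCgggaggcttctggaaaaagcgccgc
HSP90AB1 (chr6:44247759-44247868, plus strand): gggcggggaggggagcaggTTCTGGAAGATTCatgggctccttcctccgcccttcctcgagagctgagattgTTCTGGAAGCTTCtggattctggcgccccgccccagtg
HSPD1 (chr2:197500043-197500090, minus strand): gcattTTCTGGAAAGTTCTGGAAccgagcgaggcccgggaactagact
The HSPA1A and HSPA1B windows differ at 2 of 58 positions. DNAJB1 and HSP90AB1 hold 2 separate matches each, the 2 matches of HSPD1 overlap, and HSPA8 has 1 more match, which lies farther from its start than the printed window. A match describes letters and is not a measured binding site.

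Levels per length were read in transcripts per 1000000 (TPM), the deposited unit that allows genes to be compared with each other. HSP90AB1 had the highest mean level in every group: 782 ± 62 TPM in WT, 617 ± 97 in R117fs, 754 ± 23 in G659fs and 778 ± 60 in GFP (SD, n = 4 each). In GFP cells it was followed by HSP90AA1 (678 ± 72 TPM), HSPA1B (623 ± 112), HSPA8 (593 ± 56) and HSPD1 (472 ± 19). The libraries of each of these neighbours overlapped down to HSPA8, and HSPA8 lay above HSPD1 in all libraries. A step followed to DNAJB1 (133 ± 23 TPM) and HSPH1 (104 ± 13), which overlapped, then to BAG3 (44.4 ± 6.5), HSPA1A (3.00 ± 1.04) and HSPA6 (1.17 ± 0.08), which did not overlap. The separate places of HSPA1A and HSPA1B rest on an estimated division of reads, described below. Their sum was at 626 ± 112 TPM in GFP. In R117fs HSPA1B held the fifth place, at 225 ± 59 TPM, below all libraries of HSPA8 (399 ± 85) and HSPD1 (448 ± 41) and overlapping HSP90AA1 (404 ± 75). In WT HSPA6 (22.7 ± 13.9 TPM) overlapped BAG3 (38.3 ± 4.9) and HSPA1A (4.64 ± 2.47). Together the 10 genes held 3262 ± 350 TPM in WT, 2244 ± 242 in R117fs, 3200 ± 116 in G659fs and 3430 ± 353 in GFP. The 4 R117fs libraries ran between 1927 and 2472 TPM in that sum, and the lowest of the other 12 libraries was at 2910 TPM.

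**Figure D1:**
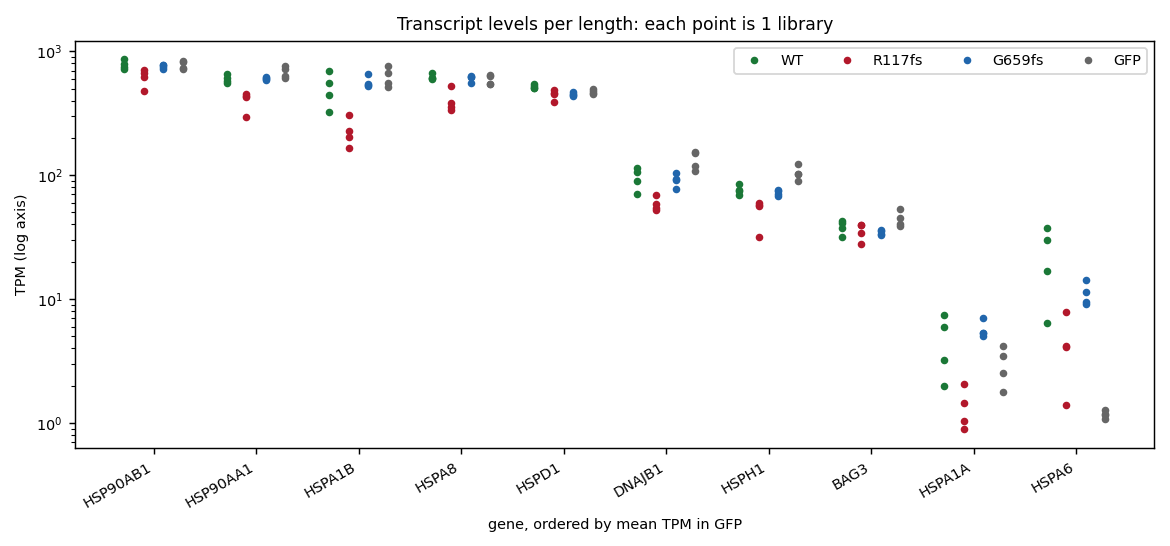
Deposited TPM of each gene, summed over its transcripts, on a log axis, with 1 point per library and the groups WT, R117fs, G659fs and GFP side by side for each gene. HSPA6 has the widest gap between groups, 22.7 ± 13.9 TPM in WT against 1.17 ± 0.08 in GFP (SD, n = 4 each), and the R117fs points of HSPA1B lie below those of all other groups.

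HSPA1A and HSPA1B, the stress-inducible HSP70 genes (GRCh38 chromosome 6, 31815464 to 31817946 and 31827735 to 31830255, plus strand), encode near-identical proteins, and their transcripts share most of their sequence. Of the 31-base words of HSPA1A, 74.3% also occur in HSPA1B, so the division of reads between them is an estimate and their sum is the firmer quantity. Of this summed count, 98.6% to 99.8% lay on annotated transcripts outside the primary assembly (alternate copies of the region), and 68.5% to 86.8% on a single one of HSPA1B, ENST00000445736. A match to genes of the primary assembly alone therefore drops nearly all reads of this pair, and its results are given beside the calls of HSPA1B or of the sum below.

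**Figure D2:**
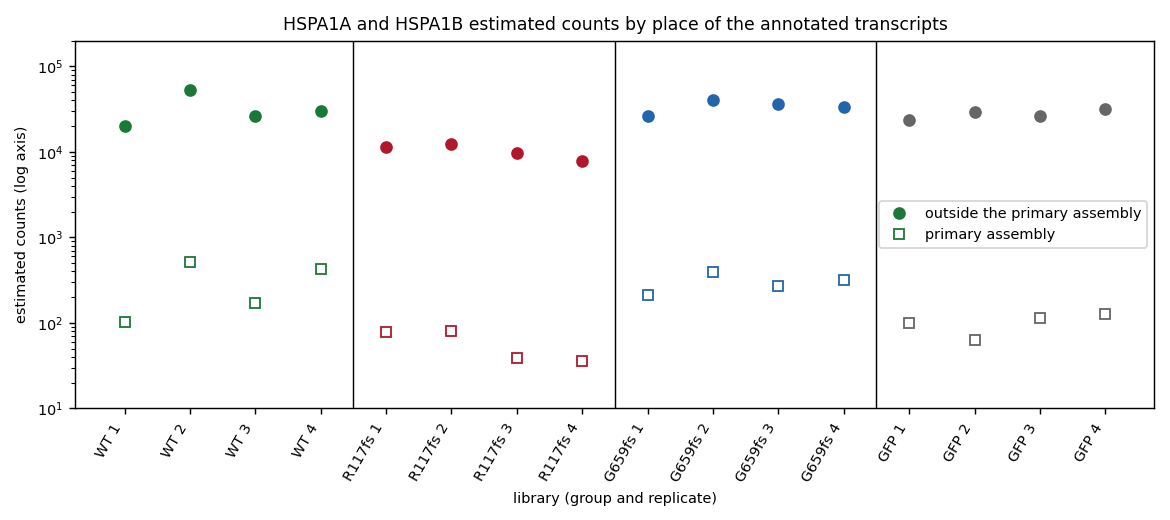
Estimated counts of HSPA1A and HSPA1B together in each library, on a log axis, split by whether the annotated transcript lies in the primary assembly (open squares) or outside it (filled circles). In all 16 libraries the filled circle lies far above the square, with 98.6% to 99.8% of the counts outside.

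The comparison of R117fs with GFP asks what this frameshift variant did to the chaperone genes. Of the 10 genes 5 fell and 0 rose at an edgeR adjusted p under 0.05, namely HSPA1B, DNAJB1, HSPH1, HSP90AA1 and HSPA8, which span the inducible HSP70, its J-domain and exchange partners, the inducible HSP90 and the constitutive HSP70. Among all 16856 genes tested, 15.9% were called in this comparison, 7.18% higher and 8.74% lower. The median log2 fold change of the 10 genes was -0.62, against -0.01 over all genes tested. In 4 of the 10 all 4 R117fs libraries lay below all 4 GFP libraries, which held for 9.24% of all genes. The libraries are of bulk RNA, so fewer cells with a transcript and less of it per cell cannot be told apart.

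HSPA1B had 281, 324, 501 and 396 CPM in the 4 R117fs libraries, against 882, 1058, 789 and 1170 CPM in the 4 GFP libraries. Every R117fs library was under every GFP library, and the 2 groups were separated by a gap wider than the spread within R117fs. The log2 fold change was -1.38 ± 0.21 (SE; edgeR adjusted p = 0.000611), a level 0.385 times that of GFP. Summed with HSPA1A, the pair gave the same log2 fold change, -1.38 (edgeR adjusted p = 0.000626). HSPA1A alone was low, with 2.22, 1.47, 1.53 and 3.58 CPM in R117fs against 2.39, 4.99, 4.04 and 5.70 CPM in GFP. The HSPA1A groups overlapped and its difference did not pass (log2 fold change -1.01, edgeR adjusted p = 0.14; 0.0453 without WT replicate 1). With transcripts of the primary assembly alone, on under 2% of the reads, neither HSPA1B (log2 fold change -0.19, edgeR adjusted p = 0.954) nor the pair's sum (-0.82, 0.271) passed.

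DNAJB1, the J-domain protein that hands substrates to HSP70 (chromosome 19, 14514770 to 14529770, minus strand), had 68.8, 68.0, 75.9 and 78.1 CPM in R117fs, against 128, 171, 129 and 174 CPM in GFP. The 4 R117fs libraries lay close together and well under the GFP libraries, which fell into a lower pair (replicates 1 and 3) and a higher pair (replicates 2 and 4). The log2 fold change was -1.05 ± 0.12 (edgeR adjusted p = 1.78e-05), or 0.482 times the GFP level. HSPH1, the HSP110 protein that exchanges the nucleotide of HSP70 (chromosome 13, 31134974 to 31162388, minus strand), had 126, 116, 118 and 85.7 CPM in R117fs, against 181, 218, 186 and 234 CPM in GFP. Its groups did not overlap either, with R117fs replicate 4 the lowest, and the log2 fold change was -0.88 ± 0.10 (edgeR adjusted p = 1.8e-05). BAG3, the exchange factor that links HSP70 to autophagy (chromosome 10, 119651370 to 119677819, plus strand), had 47.2, 53.5, 65.4 and 64.1 CPM in R117fs, against 64.3, 74.3, 60.5 and 80.5 CPM in GFP. R117fs replicates 3 and 4 lay within the GFP range, and the log2 fold change of -0.29 did not pass (edgeR adjusted p = 0.0883). BAG3 passed under 4 of 28 other settings, among them without R117fs replicate 3 (edgeR adjusted p = 0.0481).

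HSP90AA1, the stress-inducible cytosolic HSP90 (chromosome 14, 102080738 to 102139699, minus strand), had 1093, 981, 1039 and 690 CPM in R117fs, against 1379, 1640, 1381 and 1654 CPM in GFP. All R117fs libraries were lower, replicate 4 most of all, with a log2 fold change of -0.67 ± 0.11 (edgeR adjusted p = 0.000474). HSP90AB1, its constitutive paralog (chromosome 6, 44246166 to 44253888, plus strand), had 1278, 1066, 1191 and 941 CPM in R117fs, against 1248, 1396, 1203 and 1390 CPM in GFP. Here the groups overlapped, since R117fs replicate 1 lay above GFP replicates 1 and 3, and the log2 fold change of -0.23 did not pass (edgeR adjusted p = 0.0709; 0.0213 without R117fs replicate 1). HSPA8, the constitutive HSP70 that also uncoats clathrin vesicles (chromosome 11, 123057489 to 123063230, minus strand), had 753, 466, 519 and 441 CPM in R117fs, against 743, 876, 746 and 883 CPM in GFP. R117fs replicate 1 stood inside the GFP range and the other 3 R117fs libraries far under it. The log2 fold change was -0.58 ± 0.12 (edgeR adjusted p = 0.00403), and in a fit of the 8 libraries of these groups alone it was -0.58 with an adjusted p of 0.0604.

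HSPD1, the mitochondrial chaperonin (chromosome 2, 197486581 to 197516737, minus strand), had 707, 645, 650 and 454 CPM in R117fs, against 628, 685, 621 and 651 CPM in GFP. Apart from the low replicate 4 the R117fs libraries lay within or just above the GFP range, and the log2 fold change was -0.07, with a 95% interval of -0.27 to 0.12 (edgeR adjusted p = 0.642). HSPA6, an HSP70 gene that is nearly silent without stress (chromosome 1, 161524540 to 161526910, plus strand), had 2.32, 6.54, 12.9 and 7.25 CPM in R117fs, against 1.68, 1.81, 1.90 and 1.79 CPM in GFP. Every R117fs library was above every GFP library, but the spread within R117fs was wide, and the log2 fold change of 1.92 ± 0.69 did not pass (edgeR adjusted p = 0.0752). It passed under 6 of 27 other settings, among them DESeq2 (adjusted p = 0.00133), without R117fs replicate 1 (0.0292) and without WT replicate 1 (0.0197). Of the 31-base words of HSPA6, 56.6% also occur in HSPA7, a pseudogene that had 0.246 to 0.967 CPM in R117fs against 0.0603 to 0.108 in GFP, and their sum gave 1.96 (edgeR adjusted p = 0.0665).

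Without R117fs replicates 1 and 4 the same 5 of 5 genes were called and no others. In that fit the log2 fold change was -1.23 for HSPA1B, -0.71 for HSPA8, -0.79 for HSPH1, -1.06 for DNAJB1 and -0.57 for HSP90AA1, with edgeR adjusted p from 2.95e-06 to 0.0135. HSPH1, DNAJB1 and HSP90AA1 were called under all 28 other settings tried.

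**Figure D3:**
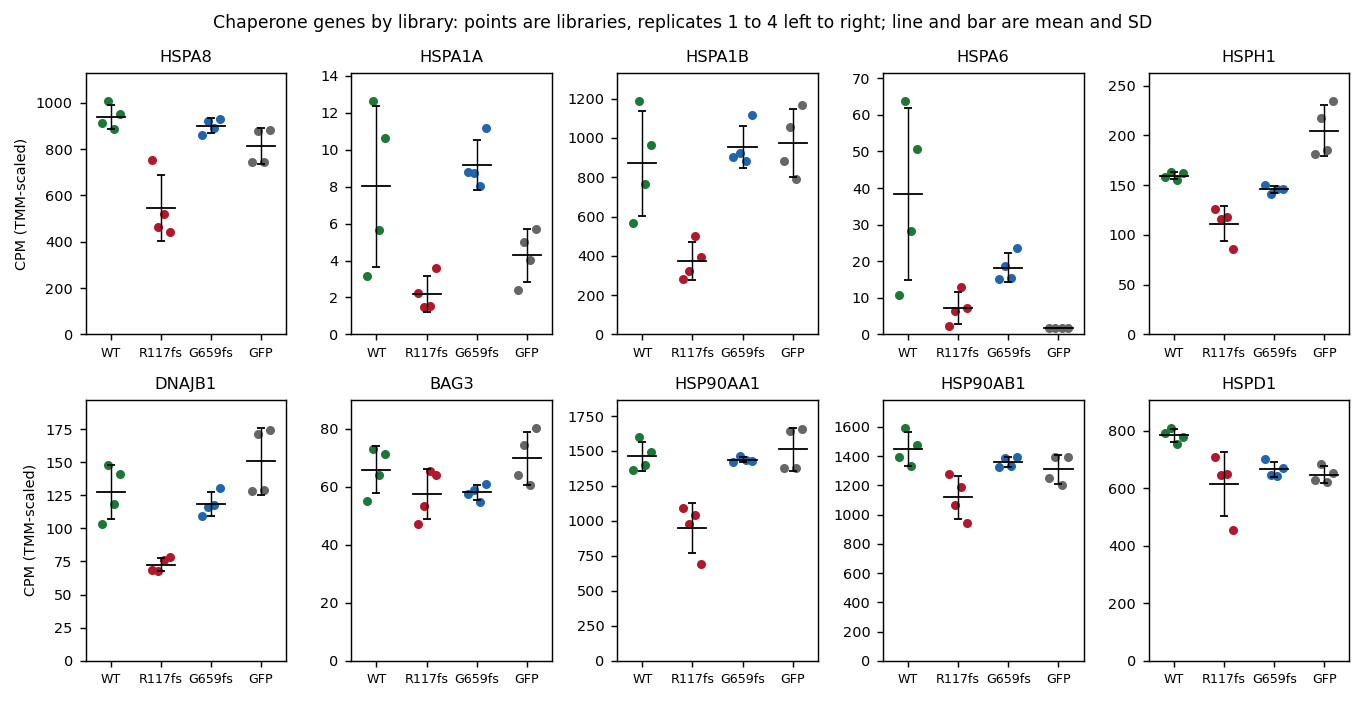
CPM of each gene in each library, with 1 panel per gene, the groups WT, R117fs, G659fs and GFP from left to right, a line at the mean of 4 libraries and a bar of 1 SD. DNAJB1, HSPH1, HSPA1B and HSP90AA1 show the 4 R117fs libraries below all GFP libraries, and HSPA6 shows GFP libraries at 1.68 to 1.90 CPM below all others.

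R117fs was set against WT to ask how the frameshift variant differed from the intact protein. Of the 10 genes 9 fell and 0 rose, all but BAG3, where 8.32% of all genes were called, 4.6% higher and 3.73% lower. The median log2 fold change of the 10 genes was -0.70, against -0.01 over all genes. In 7 of the 10 all R117fs libraries lay below all WT libraries, which held for 8.31% of all genes.

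The lowest fold changes were those of HSPA6, HSPA1A and HSPA1B. HSPA6 was at 2.32 to 12.9 CPM in R117fs against 10.9, 63.7, 28.2 and 50.7 CPM in the 4 WT libraries, and the highest R117fs library lay above the lowest WT library. Its log2 fold change was -2.50 ± 0.51 (edgeR adjusted p = 0.0121), or 0.177 times the WT level. HSPA1B, at 281 to 501 CPM in R117fs against 568, 1187, 764 and 962 CPM in WT, did not overlap and fell by 1.21 ± 0.21 on the log2 scale (edgeR adjusted p = 0.00368). Summed with HSPA1A it fell by 1.22 (edgeR adjusted p = 0.00357), and by 2.07 with transcripts of the primary assembly alone (0.00982). HSPA1A, at 1.47 to 3.58 CPM in R117fs against 3.16, 12.6, 5.64 and 10.6 CPM in WT, overlapped in 1 library and fell by 1.93 ± 0.41 (edgeR adjusted p = 0.0111). HSPA8 was at 441 to 753 CPM in R117fs against 915, 1007, 885 and 950 CPM in WT, with no overlap, and fell by 0.79 ± 0.12 (edgeR adjusted p = 0.000984).

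Among the partners, DNAJB1 was at 68.0 to 78.1 CPM in R117fs against 103, 148, 119 and 141 CPM in WT and fell by 0.81 ± 0.12 on the log2 scale (edgeR adjusted p = 0.000549). HSPH1 was at 85.7 to 126 CPM in R117fs against 158, 163, 155 and 162 CPM in WT and fell by 0.52 ± 0.10 (0.00442). Both were lower in every R117fs library than in any WT library. BAG3 was at 47.2 to 65.4 CPM in R117fs against 55.3, 73.1, 64.1 and 71.5 CPM in WT, with overlapping groups and a log2 fold change of -0.20, its 95% interval running from -0.44 to 0.03 (0.253). HSP90AA1, at 690 to 1093 CPM in R117fs against 1362, 1597, 1401 and 1491 CPM in WT, fell by 0.62 ± 0.11 (0.00231). HSP90AB1, at 941 to 1278 CPM in R117fs against 1390, 1595, 1329 and 1476 CPM in WT, fell by 0.37 ± 0.08 (0.012). Neither HSP90 gene overlapped. HSPD1, at 454 to 707 CPM in R117fs against 790, 811, 754 and 778 CPM in WT, did not overlap and fell by 0.35 ± 0.09 (0.0281). That HSPD1 call was lost when any 1 of the 4 WT libraries was left out (edgeR adjusted p 0.0523 to 0.0767).

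The same 9 of 9 genes were called without R117fs replicates 1 and 4. In a fit of the 8 WT and R117fs libraries alone 4 of the 9 remained, HSPA8, HSPA1B, DNAJB1 and HSP90AA1, and the same fit called 161 of all genes against 1403. With transcripts of the primary assembly alone HSPA1B was not called (adjusted p = 0.805) and the other 8 were.

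**Figure D4:**
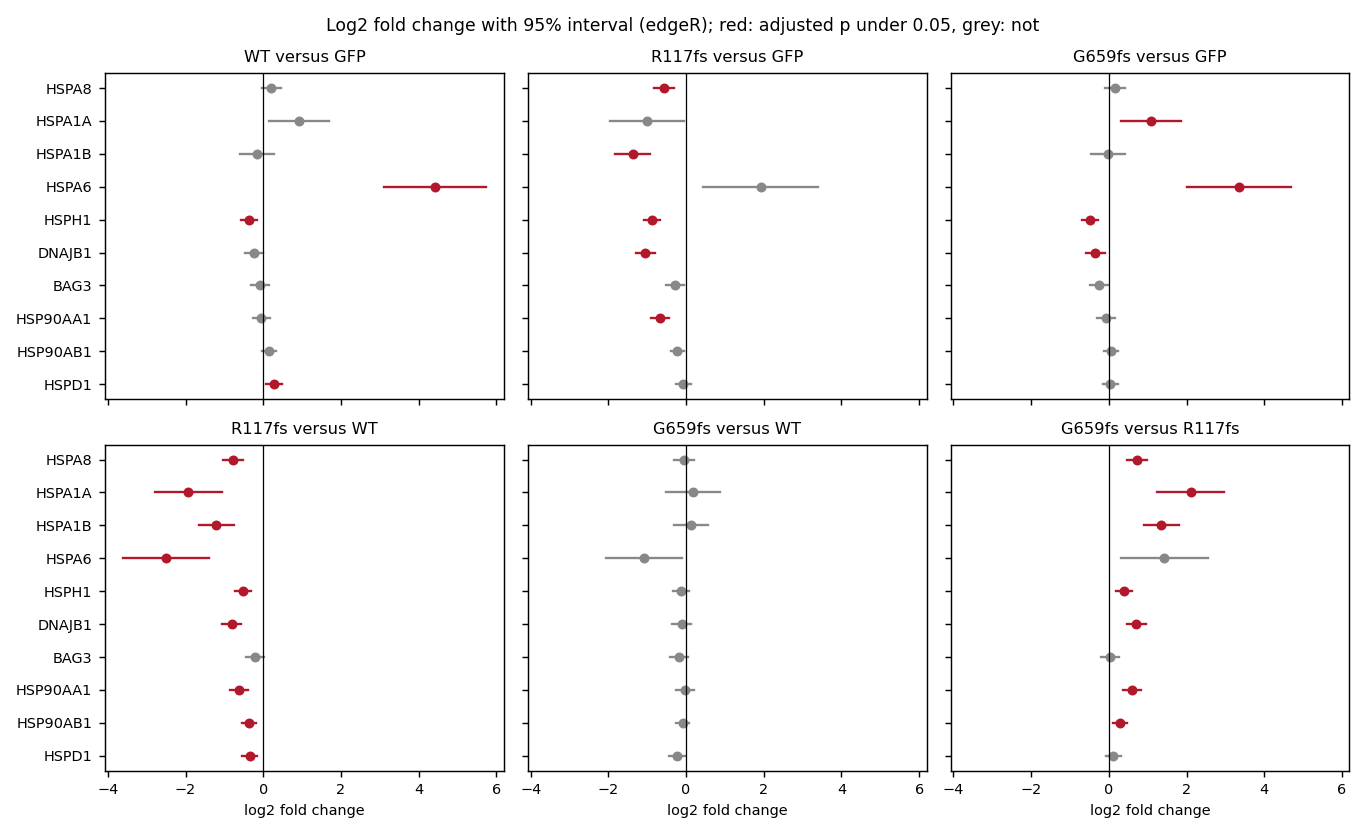
Log2 fold change of each gene in each of the 6 comparisons, with its 95% interval from the edgeR fit, where red marks an adjusted p under 0.05. In the R117fs versus WT panel 9 of 10 points are red and left of 0, and in the G659fs versus WT panel 0 of 10 are red.

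G659fs against R117fs compares the frameshift variants with each other. Among the chaperone genes 7 of 10 were higher in G659fs and 0 lower, where 14.5% of all genes were called, 6.41% higher and 8.09% lower. The median log2 fold change was 0.65, against 0.01 over all genes. In 8 of the 10 all G659fs libraries lay above all R117fs libraries, as did 9.34% of all genes. HSPA1B was at 903, 923, 882 and 1115 CPM in the 4 G659fs libraries, against 281 to 501 CPM in R117fs, and was higher by 1.35 ± 0.21 on the log2 scale (edgeR adjusted p = 0.000796; 1.35 and 0.000773 for its sum with HSPA1A). With transcripts of the primary assembly alone HSPA1B turned to -0.17 and did not pass (0.96), whereas the sum was at 2.07 (0.00524). All 4 G659fs libraries lay within the GFP range of HSPA1B, 789 to 1170 CPM. HSPA8 was at 859, 923, 892 and 931 CPM in G659fs, against 441 to 753 CPM in R117fs, and was higher by 0.73 ± 0.12 (0.000801). DNAJB1 was at 109, 116, 118 and 131 CPM in G659fs, against 68.0 to 78.1 CPM in R117fs, and was higher by 0.71 ± 0.12 (0.000758).

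HSP90AA1 was at 1422, 1463, 1439 and 1427 CPM in G659fs, a narrow range, against 690 to 1093 CPM in R117fs, and was higher by 0.60 ± 0.11 on the log2 scale (edgeR adjusted p = 0.00127). HSPH1 was at 151, 141, 146 and 146 CPM in G659fs, against 85.7 to 126 CPM in R117fs, and was higher by 0.39 ± 0.10 (0.0132). HSP90AB1 was at 1325, 1384, 1332 and 1395 CPM in G659fs, against 941 to 1278 CPM in R117fs, and was higher by 0.28 ± 0.08 (0.0299). That call was lost without R117fs replicate 2 or any 1 of G659fs replicates 2, 3 and 4 (edgeR adjusted p 0.0633 to 0.0788). In a fit of the 8 libraries of these groups alone 5 of the 7 genes were called, without HSPH1 (0.0683) and HSP90AB1 (0.112). HSPA1A was at 8.79, 8.73, 8.03 and 11.2 CPM in G659fs, against 1.47 to 3.58 CPM in R117fs, and was higher by 2.11 ± 0.41 (0.00335). HSPA6, at 15.3, 18.7, 15.3 and 23.6 CPM in G659fs, lay above every R117fs library (2.32 to 12.9 CPM), yet its log2 fold change of 1.42 ± 0.52 did not pass (edgeR adjusted p = 0.0852; 0.0474 with DESeq2). HSPD1 and BAG3 overlapped and did not pass, with log2 fold changes of 0.12 (95% interval -0.08 to 0.31) and 0.02 (-0.21 to 0.25).

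The intact ligase was set against the GFP control. In WT 2 of the 10 rose, HSPA6 and HSPD1, and 1 fell, HSPH1, where 21.7% of all genes were called, 9.98% higher and 11.8% lower, so that the share of chaperone genes called was near that of all genes. The median log2 fold change was 0.05, against 0.00 over all genes. In 3 of the 10 all WT libraries lay above all GFP libraries, and in 1 below. These orders held for 17.2% and 16.8% of all genes. HSPA6 had 10.9, 63.7, 28.2 and 50.7 CPM in WT, against 1.68, 1.81, 1.90 and 1.79 CPM in GFP. The lowest WT library was several times the highest GFP library, and the WT libraries differed widely among themselves. The log2 fold change was 4.42 ± 0.61 (edgeR adjusted p = 0.000286), a 21.4-fold difference, and it was called under all 27 other settings. HSPH1 had 158, 163, 155 and 162 CPM in WT, against 181, 218, 186 and 234 CPM in GFP. All WT libraries lay under all GFP libraries, and HSPH1 fell by 0.36 ± 0.10 on the log2 scale (edgeR adjusted p = 0.0137; 0.0636 without GFP replicate 4, and 0.123 with effective transcript length as an offset). HSPD1 had 790, 811, 754 and 778 CPM in WT, against 628, 685, 621 and 651 CPM in GFP, with no overlap, and rose by 0.28 ± 0.09 (edgeR adjusted p = 0.0411). The call of HSPD1 was lost when any 1 of the GFP or WT libraries, or G659fs replicate 2, 3 or 4, was left out (edgeR adjusted p 0.052 to 0.107).

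The other 7 genes did not pass in WT. HSPA1B, at 568 to 1187 CPM in WT against 789 to 1170 in GFP, overlapped, with a log2 fold change of -0.16 and a 95% interval of -0.60 to 0.28 (edgeR adjusted p = 0.617). Its sum with HSPA1A gave -0.16 (0.635), whereas transcripts of the primary assembly alone gave 1.25 in the opposite direction (0.0311). HSPA1A itself, at 3.16 to 12.6 CPM in WT against 2.39 to 5.70 in GFP, was at 0.92 ± 0.36 (0.0846; 0.00764 without WT replicate 1). HSPA8 was at 885 to 1007 CPM in WT against 743 to 883 in GFP, every WT library above every GFP library, with a log2 fold change of 0.21 ± 0.12 (0.232; 0.0478 without R117fs replicate 1). DNAJB1 was at -0.24 (0.154), HSP90AB1 at 0.15 (0.228), BAG3 at -0.08 (0.638) and HSP90AA1 at -0.05 (0.778).

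Within WT several genes shared the same highest and lowest libraries. Replicate 1 was the lowest and replicate 2 the highest of the 4 in HSPA1A, HSPA1B, HSPA6, DNAJB1, BAG3 and HSP90AA1, with HSPA6 at 10.9 and 63.7 CPM in these 2 libraries and HSPA1B at 568 and 1187 CPM. These are 6 of the 10 genes, where 16% of all genes tested had that order. Within GFP, replicates 2 and 4 lay above replicates 1 and 3 in 9 of the 10 genes, as they did in 26.6% of all genes tested. The exception was HSPA6, where the 4 GFP libraries stayed between 1.68 and 1.90 CPM. As a measure of each library, the median over the 10 genes of the log2 CPM, taken relative to the GFP mean of each gene, was -0.24 to 0.29 in WT, -0.71 to -0.51 in R117fs, -0.04 to 0.07 in G659fs and -0.13 to 0.17 in GFP. This summary is a description, since the same genes define it.

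**Figure D5:**
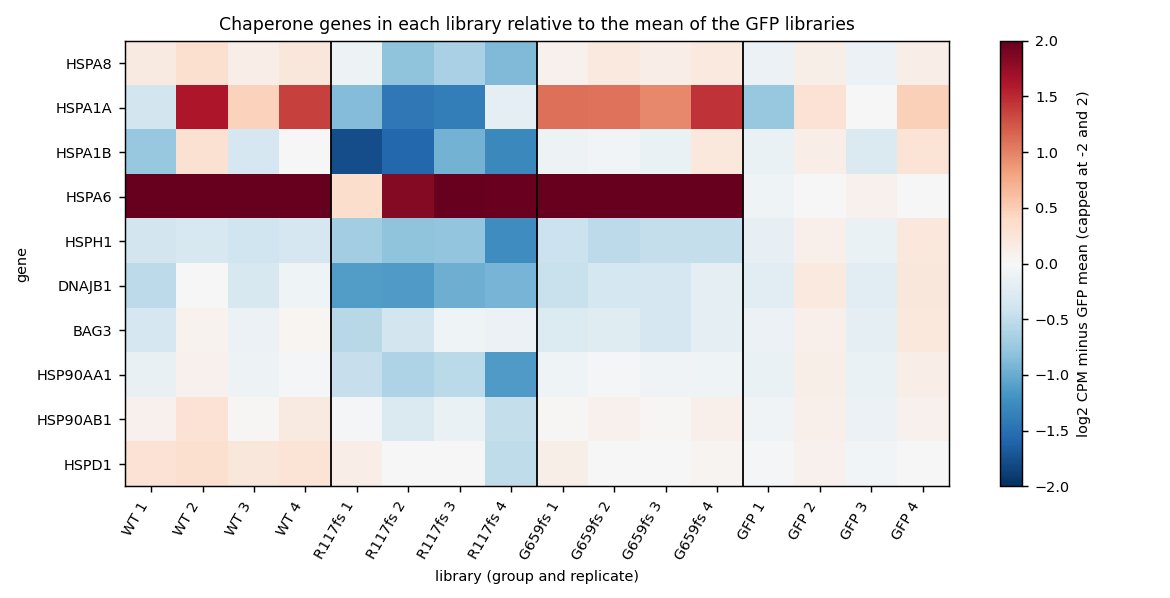
Log2 CPM of each gene in each library minus the mean of the gene over the 4 GFP libraries, with libraries ordered as WT, R117fs, G659fs and GFP and the colour scale capped at -2 and 2. The R117fs columns are blue for most genes (library medians -0.71 to -0.51). The HSPA6 row is above 0 in all WT, R117fs and G659fs libraries, least in R117fs replicate 1 (0.36).

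G659fs was next set against GFP. Of the 10 genes 2 rose, HSPA6 and HSPA1A, and 2 fell, HSPH1 and DNAJB1, where 25.7% of all genes were called, 11.8% higher and 14% lower. The median log2 fold change was 0.01, against 0.00 over all genes. In 2 of the 10 all G659fs libraries lay above all GFP libraries, and in 1 below. These orders held for 19.2% and 18.9% of all genes. HSPA6, at 15.3 to 23.6 CPM in G659fs against 1.68 to 1.90 in GFP, rose 10.1-fold (log2 fold change 3.34 ± 0.62, edgeR adjusted p = 0.00183), with no overlap. HSPH1, at 141 to 151 CPM in G659fs against 181 to 234 in GFP, did not overlap and fell by 0.49 ± 0.10 on the log2 scale (0.00145). DNAJB1, at 109 to 131 CPM in G659fs against 128 to 174 in GFP, overlapped and fell by 0.35 ± 0.12 (0.0352). HSPA1A, at 8.03 to 11.2 CPM in G659fs against 2.39 to 5.70 in GFP, did not overlap and rose by 1.09 ± 0.36 (0.0365). HSPA6 and HSPH1 were called under all other settings. The DNAJB1 call was lost without GFP replicate 2 or 4 or G659fs replicate 1, 2 or 3 (edgeR adjusted p 0.0759 to 0.132), and the HSPA1A call without any 1 of GFP replicates 1 to 3 or of the G659fs libraries (0.0538 to 0.0941). Without R117fs replicates 1 and 4, which enter the shared spread, 2 of these 4 genes were called. HSPA1B was at -0.03 (95% interval -0.47 to 0.41) and its sum with HSPA1A at -0.02 (edgeR adjusted p = 0.954), where transcripts of the primary assembly alone gave 1.25 (0.0272). The remaining log2 fold changes were 0.15 for HSPA8, 0.05 for HSP90AB1, 0.04 for HSPD1, -0.07 for HSP90AA1 and -0.27 for BAG3, with edgeR adjusted p from 0.0869 to 0.783. BAG3 passed under 5 of 28 other settings, among them the 8 libraries alone (edgeR adjusted p = 0.016) and the replicate block (0.0425).

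G659fs was last set against WT. Of the 10 genes 0 passed by edgeR, where 5.78% of all genes were called, 2.41% higher and 3.38% lower, and 0 passed by DESeq2 or by limma on TPM. At an unadjusted p under 0.05 edgeR gave 2, HSPA6 with a log2 fold change of -1.08 (95% interval -2.06 to -0.10; adjusted p = 0.177) and HSPD1 with -0.24 (-0.43 to -0.04; adjusted p = 0.138). Over all genes the share at that unadjusted threshold is not given here and is at least 5.78%. HSPD1, at 642 to 701 CPM in G659fs against 754 to 811 in WT, did not overlap, and was called without R117fs replicate 4 (edgeR adjusted p = 0.00183). HSPH1, at 141 to 151 CPM in G659fs against 155 to 163 in WT, did not overlap either, with a log2 fold change of -0.13 (0.468; 0.0105 in a fit of these 8 libraries alone). For the HSP90 genes the 95% intervals were -0.25 to 0.20 for HSP90AA1 and -0.27 to 0.08 for HSP90AB1, and for HSPA8 -0.31 to 0.19. The median log2 fold change of the 10 genes was -0.10, against 0.00 over all genes. In 0 of the 10 all G659fs libraries lay above all WT libraries, and in 2 below. These orders held for 12.4% and 14.6% of all genes.

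The comparisons with GFP share the 4 GFP libraries, so their values are set side by side without a test of likeness. HSPA6 was at 4.42 in WT, 1.92 in R117fs and 3.34 in G659fs on the log2 scale, above 0 in all 3. In the same order of groups HSPH1 was at -0.36, -0.88 and -0.49, and DNAJB1 at -0.24, -1.05 and -0.35. Likewise HSPA1B was at -0.16, -1.38 and -0.03, HSP90AA1 at -0.05, -0.67 and -0.07, and HSPA8 at 0.21, -0.58 and 0.15. These 3 passed the test in R117fs and not in WT or G659fs. The tests of R117fs against WT and of G659fs against R117fs above are the tests of those differences.

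Transcripts of a gene could shift without its sum, so the shares of the counts on each transcript were read. HSP90AA1 lay mostly on ENST00000216281, with 96.0% ± 0.4 in WT, 93.1% ± 3.1 in R117fs, 95.7% ± 0.6 in G659fs and 95.9% ± 0.6 in GFP (SD, n = 4 each). DNAJB1 lay on ENST00000254322 with 95.3% ± 1.4 in WT, 93.0% ± 3.5 in R117fs, 94.96% ± 1.13 in G659fs and 93.4% ± 2.0 in GFP. HSPH1 was divided between ENST00000380405 (44.9% in WT, 44.7% in R117fs, 45.7% in G659fs and 46.0% in GFP) and ENST00000602786 (36.9% in WT, 36.5% in R117fs, 35.2% in G659fs and 36.6% in GFP). HSPA8 lay on ENST00000532636 with 63.8% ± 6.4 in WT, 69.6% ± 5.9 in R117fs, 68.4% ± 4.0 in G659fs and 66.9% ± 5.1 in GFP. For these main transcripts of HSP90AA1, DNAJB1 and HSPA8 the group means differed by less than 1 SD of the R117fs libraries. For HSP90AA1 and DNAJB1 that SD was the widest of the 4 groups. The HSP90AA1 share in R117fs lay below each other mean by more than 1 SD of that other group. Some lesser transcripts differed by more than 1 SD of the R117fs libraries. ENST00000227378 of HSPA8 held 20.46% ± 7.74 in WT, 11.4% ± 8.5 in R117fs, 13.47% ± 2.96 in G659fs and 18.25% ± 4.23 in GFP. ENST00000334701 of HSP90AA1 held 3.57% ± 0.48 in WT, 6.04% ± 2.30 in R117fs, 3.88% ± 0.59 in G659fs and 3.75% ± 0.62 in GFP. No share was tested.

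Other chaperone genes were read as lists, beside the share of all tested genes called in the same direction. In R117fs against GFP that share was 7.18% higher and 8.74% lower, in WT 9.98% and 11.8%, in G659fs 11.8% and 14%, and in R117fs against WT 4.6% and 3.73%. Of 16 tested HSF1-inducible chaperones and partners 0 rose and 7 fell in R117fs against GFP, with a median log2 fold change of -0.24. HSPB8, a small heat shock protein that works with BAG3, was at 6.43 ± 0.23 CPM in R117fs against 11.9 ± 1.7 in GFP and fell by 0.88 ± 0.12 on the log2 scale (edgeR adjusted p = 0.000153). DNAJA1, a farnesylated J-domain protein, fell by 0.40 ± 0.08 (0.002), the small heat shock protein HSPB1 by 0.48 ± 0.12 (0.013) and the zinc finger gene ZFAND2A by 0.28 ± 0.08 (0.0188). CACYBP was at -0.09 (0.478). In the same list 0 rose and 2 fell in WT, HSPB1 by 0.46 ± 0.12 (0.0108) and ZFAND2A by 0.51 ± 0.08 (0.000154), and 0 rose and 1 fell in G659fs, ZFAND2A by 0.72 ± 0.08 (4.75e-06), so that the counts in WT and G659fs were near or below the shares of all genes. R117fs against WT gave 0 higher and 6 lower, with HSPB8 at -1.004 ± 0.121 (9.24e-05) and DNAJA1 at -0.54 ± 0.08 (0.000483).

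In the rest of the cytosolic HSP70 system the counts of lower genes in WT and G659fs were near the shares of all genes. Of these 17 genes 0 rose and 3 fell in R117fs against GFP, where 8.74% of all genes fell: HSPA2, an HSP70 best known from the testis, by 0.56 ± 0.11 on the log2 scale (edgeR adjusted p = 0.00194), the exchange factor BAG5 by 0.40 ± 0.08 (0.00396) and ST13, which stabilises HSP70 with its substrate, by 0.39 ± 0.09 (0.00535). WT gave 0 higher and 2 lower, BAG5 by 0.29 ± 0.08 (0.0202) and the J-domain gene DNAJB2 by 0.52 ± 0.10 (0.00136), and G659fs gave 1 higher and 3 lower, with DNAJB2 lower by 0.83 ± 0.10 (1.68e-05). BAG1 was at 0.12 (0.44) and HSPBP1 at 0.21 (0.245) in R117fs. Of 12 HSP90 co-chaperones, which load or pace HSP90, 1 rose and 2 fell in R117fs, 1 rose and 1 fell in WT, and 0 rose and 0 fell in G659fs (all against GFP, edgeR), with 3 in G659fs at an unadjusted p under 0.05. Over all genes 15.9% were called in R117fs, 21.7% in WT and 25.7% in G659fs. These shares are at the adjusted threshold, so at least 25.7% had an unadjusted p under 0.05 in G659fs. FNIP1 fell by 0.46 ± 0.10 (0.00401) and FNIP2 by 0.25 ± 0.08 (0.0343) in R117fs, where TTC4 rose by 0.16 ± 0.05 (0.043). The kinase loader CDC37 was at 0.18 (0.102), the phosphatase PPP5C at 0.14 (0.166) and PTGES3, the co-chaperone p23, at -0.11 (0.586).

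Chaperones outside these systems were read in the same way. The TRiC ring and prefoldin, which fold actin and tubulin, had 5 of 14 genes higher and 0 lower in WT, where 9.98% of all genes were higher, with CCT5 up by 0.30 ± 0.06 (edgeR adjusted p = 0.00141), CCT4 by 0.25 ± 0.06 (0.00451) and CCT7 by 0.19 ± 0.05 (0.0148). In R117fs 1 of 14 rose, PFDN2 by 0.24 ± 0.07 (0.0276), with TCP1 at -0.19 (0.183) and PFDN1 at 0.13 (0.15), and in G659fs 1 of 14 rose, near the 7.18% and 11.8% of all genes higher in these comparisons. Of 10 mitochondrial chaperones and proteases 3 rose and 0 fell in R117fs against GFP, where 7.18% of all genes rose. They were TRAP1, the mitochondrial HSP90, up by 0.38 ± 0.07 (0.00162), the protease subunit CLPP by 0.35 ± 0.10 (0.0299) and the exchange factor GRPEL1 by 0.20 ± 0.06 (0.0385). DNAJA3 was at 0.19 (0.0679). In WT 3 rose, TRAP1 by 0.46 ± 0.07 (0.000193), GRPEL1 by 0.22 ± 0.06 (0.0159) and the mitochondrial HSP70 HSPA9 by 0.23 ± 0.08 (0.0393), and CLPX fell by 0.26 ± 0.08 (0.0307). In G659fs 3 rose and 1 fell.

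Of 6 counterparts in the endoplasmic reticulum (ER) 5 rose and 0 fell in R117fs against GFP, where 7.18% of all genes rose, with a median log2 fold change of 0.87. HSPA5, the HSP70 of that compartment, was at 2080 ± 601 CPM in R117fs against 619 ± 24 in GFP and rose by 1.75 ± 0.14 on the log2 scale (edgeR adjusted p = 4.22e-07). HYOU1, the counterpart of HSPH1, rose by 1.40 ± 0.11 (1.67e-07), HSP90B1, the counterpart of the HSP90 genes, by 0.91 ± 0.11 (2.44e-05), the J-domain gene DNAJB11 by 0.82 ± 0.09 (2.13e-05) and the exchange factor SIL1 by 0.48 ± 0.10 (0.00301). HSPA13 was at 0.07 (0.783). WT gave 4 higher and 0 lower, where 9.98% of all genes were higher, with HSPA5 up by 0.78 ± 0.14 (0.000832), and G659fs 0 and 0, with HSPA5 at 0.35 (0.0739). In G659fs 4 of the 6 had an unadjusted edgeR p under 0.05, among them HYOU1 at 0.27 (adjusted p = 0.073) and DNAJB11 at 0.25 (0.0615). The share of all genes at that unadjusted threshold is not given here. It is at least the 25.7% called at the adjusted one. R117fs against WT gave 4 higher and 0 lower, with HSPA5 up by 0.97 ± 0.14 (0.000595).

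The heat shock factors were read for their own RNA, which does not measure their activity. HSF1, the main activator, was at 140 ± 34 CPM in R117fs against 110 ± 10 in GFP and rose by 0.35 ± 0.11 on the log2 scale (edgeR adjusted p = 0.0436). In WT HSF1 was at 114 ± 2 CPM (log2 fold change 0.05, 0.78) and in G659fs at 117 ± 3 (0.10, 0.558). HSF2, which can bind with HSF1, was at 61.2 ± 1.2 CPM in WT against 79.4 ± 9.3 in GFP and fell by 0.37 ± 0.12 (0.0362), and fell by 0.35 ± 0.12 in G659fs (0.0416). In R117fs HSF2 was at -0.32 ± 0.12 (0.0848). HSF4 was at 0.32 (0.177) and HSBP1, an HSF1-binding protein, at -0.07 (0.471) in R117fs.

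The genes outside the 10 whose libraries followed them most closely were named by the root mean square difference, over all 16 libraries, between a gene's log2 CPM relative to its GFP mean and the median of the 10 genes. They were ARHGEF39 (0.122), RBM12 (0.143), HSPA2 (0.152), PKNOX1 (0.155) and AURKA (0.160), in log2 units. Their log2 fold changes in R117fs against GFP were -0.46, -0.56, -0.56, -0.42 and -0.44. Of the 10 genes themselves, HSP90AA1 (0.138), HSPA8 (0.183) and HSP90AB1 (0.224) lay closest to their common median and HSPA6 (2.94) and HSPA1A (0.832) farthest. The likeness is a description over libraries that share groups and carries no test.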

How the data were processed

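RNA was sequenced from 16 HEK293 libraries in 4 groups of 4. Per the submitters' processing notes, kallisto 0.45.1 and GRCh38 were used; other steps: not given in the sources. The deposited values are estimated counts and TPM per transcript, per the file headers. Of 178136 transcripts 162453 were matched to genes of the GENCODE 29 primary assembly, 13634 by GENCODE 29 symbol outside it and 2049 not at all. Estimated counts were summed per gene and rounded. All 16 libraries were fitted together with edgeR 4.0.16 (R 4.3.3), TMM scaling, its low-count filter and the quasi-likelihood test, over 16856 genes with Benjamini-Hochberg adjustment at 0.05; intervals are 95% t intervals. The fit was tested on simulated data in which all groups had the same spread. That test does not cover the wider spread of the R117fs libraries. Library totals set the precision, and counting error is not the whole error.

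The 10 genes and all lists were chosen with earlier results of these data known. The genes named from a list were up to 4 with the smallest unadjusted p in R117fs against GFP and up to 2 more in WT against GFP, with HSF1 and HSF2 always named. A gene that this rule names is not reported here. Alternatives were DESeq2 1.42.0, limma 3.58.1 on log2(TPM + 1), RLE scaling, no filter, an effective length offset, the 8 libraries of the compared groups alone, a replicate block, removal of a GC trend, both together, summing near-identical genes, leaving out each library, and leaving out R117fs replicates 1 and 4. Matching to the primary assembly alone was added after seeing the data.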

Additional observations from a re-analysis of the deposited data

How the results depend on the processing

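Of 1662 values of the 60 gene differences under other settings, 1572 stayed on their side of the threshold, 49 lost the call and 40 gained one. The sign changed in 25, of which 24 were differences called neither before nor after. The called difference that reversed was HSPA1B in G659fs against R117fs, at -0.17 with transcripts of the primary assembly alone, a match chosen after seeing the data that drops nearly all reads of the pair. With that match the HSPA1A and HSPA1B sum was at 1.25 in WT against GFP (adjusted p = 0.0311), 1.25 in G659fs against GFP (0.0272) and -0.82 in R117fs against GFP.

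The number of the 10 genes called in WT against GFP was 3, 5 with the GC trend removed and a replicate block, and 1 to 4 without 1 library; in R117fs against GFP 5, and 8 with GC and block; in G659fs against GFP 4, 2 without the filter, 2 without R117fs replicates 1 and 4, and 2 to 4 without 1 library; in R117fs against WT 9, and 4 with the 8 libraries alone; in G659fs against R117fs 7, and 5 with the 8 libraries alone. In G659fs against WT it was 0, 2 with the 8 libraries alone, 1 with the effective length offset, 1 with the GC trend removed, 1 with GC and block, 1 without R117fs replicates 1 and 4, and 0 to 1 without 1 library.

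Over all genes, WT against GFP called 3665, with 6019 from the 8 libraries alone, 6470 with the GC trend removed, 7064 with GC and block, 6825 without R117fs replicates 1 and 4, and 2289 to 6215 without 1 library. R117fs against GFP called 2685, with 604, 4736 and 5288 under the first 3 of these settings, and 1510 to 3822 without 1 library. G659fs against GFP called 4338, with 7094, 6892, 7412 and 7385 under those 4, and 3132 to 6821 without 1 library. R117fs against WT called 1403, with 161, 3038, 3823 and 3443, 843 with the effective length offset, and 659 to 2636 without 1 library. G659fs against WT called 975, with 4739, 3425, 4165 and 4214, 1684 by DESeq2, 618 without the filter, 428 with the offset, 232 by limma, and 113 to 3577 without 1 library. G659fs against R117fs called 2443, with 832, 4977, 5634 and 4614, 1602 by limma, and 1344 to 4026 without 1 library. The cause of these shifts was not tested.

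The HSPA6 and HSPA7 sum in R117fs against GFP passed at 2.06 with DESeq2 (adjusted p = 0.000917), 1.99 with the 8 libraries alone (0.0256), 1.95 with the replicate block (0.0349) and 1.88 with GC and block (0.038), and ran between 1.56 and 2.31 without 1 library. In R117fs against WT it was -2.42 with the 8 libraries alone (0.0994). In G659fs against R117fs it passed at 1.45 with the block (0.0393) and 1.49 with GC and block (0.0306), and ran between 1.04 and 1.79 without 1 library.

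With the replicate number as a block, 4, 7, 5, 9, 0 and 8 of the 10 genes were called in WT against GFP, R117fs against GFP, G659fs against GFP, R117fs against WT, G659fs against WT and G659fs against R117fs. The shares of all genes called with this block are not given here. Whether its counts are particular to the 10 genes therefore cannot be told from them. Same-numbered libraries of different groups had deviations that correlated between -0.0703 and 0.177 (median 0.0332, 24 pairs). Differently numbered libraries gave -0.219 to 0.191 (median -0.0168, 72 pairs). These ranges overlap, so whether the numbers pair the samples cannot be told from them.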
